A study of Mus musculus with 12 samples.

Results

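The genes described here build and police the attachment of chromosomes to the mitotic spindle. They are 33 named genes for centromere, kinetochore, chromosomal passenger and spindle checkpoint proteins, taken by symbol from the 24062 genes of the count tables, and reads were counted for every one of them in all 12 libraries. The study asked how removing tryptophan (Trp) from the diet changes liver tumors. Each library is polyA RNA from 1 mouse, in 4 groups of 3 mice. The MYC-ON livers came from FVB mice with TRE-MYC and LAP-tTA transgenes, in which a liver-specific promoter drives the activator of a MYC transgene and doxycycline, given to the breeders, was withdrawn at birth. These mice were males, since the study's methods place the transgene on the Y chromosome. The methods give an age of 45 days for the MYC-ON males that were compared with wild type. The paper's comparison of tumor burden after 21 days on the diets ended at a slightly later age. The xenografts were tumors of HCC53N cells grown in NOD SCID hosts (spelled NOD-SKID in the labels). HCC53N is a mouse liver tumor cell line, knockout for p53 and overexpressing mutant NRAS, grown under the skin of females according to the methods, with repeats in males. The labels also give FVB MYC ON as the genotype of the xenografted cells, whereas the methods derive the line from p53-deleted, NRAS-driven tumors without naming that transgene. In both models the mice ate either the control diet (complete diet in the labels) or the No-Trp diet for 21 days. The liver RNA is from whole tissue and the xenograft line is a single cell line in an immunodeficient host, so each model has its own limits.

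At mitosis every chromosome assembles a kinetochore on its centromere. Histone variant CENP-A marks the place, the constitutive centromere-associated network binds it, and on that base sits the outer network of Knl1 (Casc5 in the count tables), the Mis12 complex and the Ndc80 complex, whose long rods grip microtubule ends. Where a kinetochore is not attached, the kinase Mps1 (Ttk) and the Bub and Mad proteins form an inhibitor that holds Cdc20 and so the anaphase-promoting complex back. Aurora B with Incenp, survivin (Birc5) and borealin (Cdca8) releases wrong attachments, and Plk1 acts at kinetochores as well as at centrosomes. Many of these genes are transcribed mainly in late S, G2 and M phase, through CHR and CCAAT promoter elements bound by the DREAM, B-MYB and NF-Y complexes, and they are widely read as marks of dividing cells. Fewer cycling cells and less RNA per cell cannot be told apart in these bulk libraries. In its comparison of tumor burden, the paper reports lighter MYC-ON livers on the No-Trp diet, with fewer and smaller tumors. According to the paper, the tumors that remained still stained for MYC and for a marker of dividing cells. From RNA sequencing of MYC-ON livers, the paper also reports lower expression of cell cycle and DNA replication genes on this diet. It reports less MYC transgene RNA there as well, though still more than in wild-type livers. The share of tumor tissue in each liver library is not known, and its part in the values was not tested.

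Between 14660963 and 26085349 reads per library were counted on genes, and the 33 genes held 5109 to 50556 of them. Values are counts of a gene per 1000000 counted reads (CPM), scaled by the trimmed mean of M values (TMM) over the 12 libraries, and are given in the order of mice 101, 102 and 103 for control livers, 105, 107 and 108 for No-Trp livers, 40, 41 and 43 for control xenografts and 35, 36 and 37 for No-Trp xenografts. Mouse 107 had the lowest TMM factor, 0.687, and the fewest reads on the 33 genes, and mouse 101 had 12.1% of its reads on the ribosomal RNA gene Rn45s. Libraries of mice 101, 108, 41 and 43 carry a resubmission mark in their names. As a check of the labels, Trp53 stood at 121, 115 and 133 CPM in control livers and 64.0, 46.6 and 75.0 CPM in No-Trp livers. In xenografts it stood at 19.0, 17.5 and 19.1 CPM on the control and 23.0, 18.2 and 17.9 CPM on the No-Trp diet, below every liver, and counts per gene do not show which exons they cover. Nras, at 102, 89.2 and 106 CPM in control livers, stood at 413, 484 and 440.3 CPM in control xenografts, above every liver. Defining hepatocyte markers such as Alb and Hnf4a were read in all libraries, with a summed level of the 10 listed markers of 13120 to 128884 CPM in livers and of 731 to 2280 CPM in xenografts, where 1 of the 10 was at 0.

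In MYC-ON livers most of the set was lower on the No-Trp diet. A gene is called when its adjusted p (edgeR quasi-likelihood test, two-sided, Benjamini-Hochberg over all genes tested) is at most 0.05 and its log2 fold change is at least 1 in size. Of the 33 genes, all tested, 21 fell and 0 rose, whereas 7.27% of all 14122 genes were called lower and 9.28% higher. Cenpl and Bub3 missed the call by the size of the change alone, and DESeq2 called 26 lower and 0 higher. At an unadjusted p below 0.05, 29 of the 33 were lower, as were 20.6% of all genes tested. By DESeq2 29 were lower at that p, beside 16.6% of all genes. The median log2 fold change of the 33 was -1.83, against -0.0031 over all genes tested. In 30 of the 33 every No-Trp liver lay below every control liver, an arrangement that 25.4% of all genes tested had. The largest decreases were of Cenpe (4.73-fold), Ndc80 (4.69-fold) and Cenpf (4.61-fold).

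The sizes of the drop differed between the 3 No-Trp livers. Against the control mean of each gene, the median shift of the 33 was -1.44 on the log2 scale in mouse 105, -3.22 in mouse 107 and -1.30 in mouse 108, and it was 0.098, -0.10 and 0.044 in the control livers. With 3 animals a group, the call depended on single libraries although the sign of the median did not. Without mouse 101, 103 or 105 the count called lower was 0 in each case, with the lowest adjusted p of the 33 by edgeR at 0.0554, 0.0860 and 0.0567 and with 26, 27 and 27 genes lower at an unadjusted p below 0.05, beside 17.1%, 15.6% and 16.3% of all genes tested in those fits. Without mouse 108 it was 12, without mouse 102 it was 20, and without mouse 107, the lowest liver, it was 22 with a median of -1.40. In these 3 fits, 30, 29 and 29 genes were lower at an unadjusted p below 0.05 by edgeR, beside 20.2%, 20.7% and 17.2% of all genes tested.

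**Figure D1:**
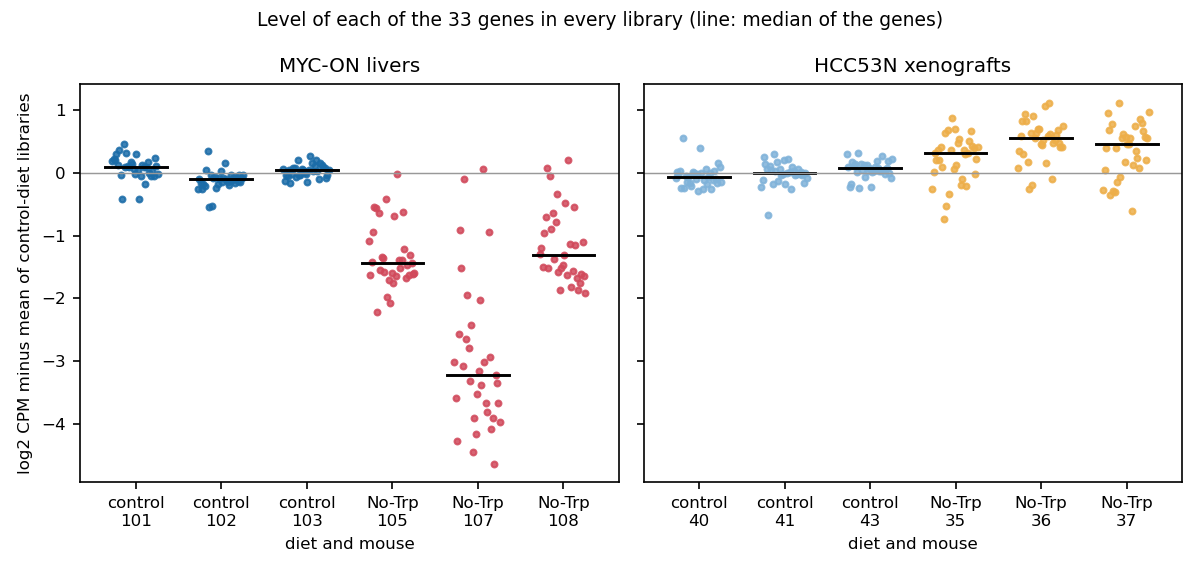
Log2 CPM of each of the 33 genes in every library, minus the mean of the control-diet libraries of the same model, with 1 point per gene and a line at the median of the genes. The medians of the No-Trp livers lie at -1.44, -3.22 and -1.30, those of the No-Trp xenografts at 0.32, 0.56 and 0.45, and the control libraries of both models spread around 0.

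Promoters of 30 of the 33 genes were in the RefSeq promoter table (GRCm38.p6, 250 bases before to 50 after the annotated start, which is position 0), and the promoters of Spc24, Aurkb and Incenp were not. The stretches below, from 80 bases before to 29 after the start, are shown because they hold, or lack, the CHR letters of 6 of the genes with the larger decreases, of the most decreased gene Cenpe, and of Zwint, the gene that moved least. Capitals mark TTTGAA, its reverse complement TTCAAA, or TTCGAA, and each stretch reads 5′ to 3′ along the gene's own strand.
Cdc20 (chr4:118437314-118437423, minus strand): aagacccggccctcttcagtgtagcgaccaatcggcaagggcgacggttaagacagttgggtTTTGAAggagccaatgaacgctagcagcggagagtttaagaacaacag
Ttk (chr9:83834609-83834718, plus strand): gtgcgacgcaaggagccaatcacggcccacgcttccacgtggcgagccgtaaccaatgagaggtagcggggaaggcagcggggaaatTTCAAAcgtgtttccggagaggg
Bub1 (chr2:127831830-127831939, minus strand): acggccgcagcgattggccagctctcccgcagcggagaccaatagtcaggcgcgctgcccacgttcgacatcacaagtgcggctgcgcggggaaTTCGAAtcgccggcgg
Cenpf (chr1:189688057-189688166, minus strand): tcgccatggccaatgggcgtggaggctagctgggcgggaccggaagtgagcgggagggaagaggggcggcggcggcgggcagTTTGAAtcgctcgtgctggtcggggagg
Cenpn (chr8:116921660-116921769, plus strand): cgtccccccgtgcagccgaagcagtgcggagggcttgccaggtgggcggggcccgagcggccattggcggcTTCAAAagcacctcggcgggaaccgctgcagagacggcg
Cdca8 (chr4:124936888-124936997, minus strand): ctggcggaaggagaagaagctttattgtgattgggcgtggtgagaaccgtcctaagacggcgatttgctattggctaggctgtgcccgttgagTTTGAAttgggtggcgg
Cenpe (chr3:135212483-135212592, plus strand): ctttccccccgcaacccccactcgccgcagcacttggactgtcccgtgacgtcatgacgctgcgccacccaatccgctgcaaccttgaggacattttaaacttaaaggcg
Zwint (chr10:72654766-72654875, plus strand): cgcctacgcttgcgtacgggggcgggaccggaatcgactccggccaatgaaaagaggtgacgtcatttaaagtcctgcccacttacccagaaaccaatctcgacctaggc

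CHR letters (TTTGAA or TTCGAA, both strands) stood in 16 of the 30 promoters, or 53.3%, and in 19.4% of the promoters of 27025 genes, with the first listed promoter of each gene taken. Within 100 bases before and 50 after the start the shares were 50% (15 of 30) and 8.68%. The matches began at position 7 in Ttk, 14 in Bub1, 2 in Cenpf, -9 in Cenpn, 13 in Cdca8 and -18 in Cdc20, close to the start in each. CCAAT on either strand stood in 21 of the 30 promoters (70%) and in 37.9% of all, and Cdc20, Ttk and Bub1 each had 2 of them within the stretches shown. The E2F letters TTGGCGC or TTCCCGC stood in 5 of 30 (16.7%) and in 6.93% of all, where TTGGCGC can share letters with a reversed CCAAT. The E-box CACGTG, the letters that MYC with MAX binds, stood in 2 of 30 (6.67%), Ttk and Knstrn, and in 7.24% of all. Of the 16 genes with CHR letters, 11 were called lower in livers, with a median log2 fold change of -2.04, and of the 14 without, 8 were called lower, with a median of -1.62. These are matches of letters, given as a description without a test.

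**Figure D2:**
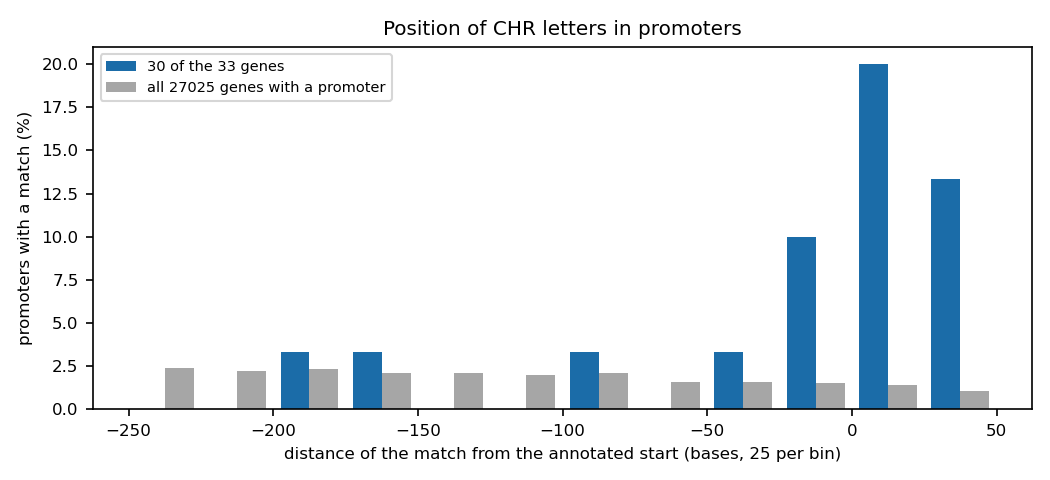
Share of promoters (%) in which CHR letters begin within each bin of 25 bases, by distance from the annotated start, for 30 of the 33 genes (blue) and all 27025 genes with a promoter (grey). The share among the 30 genes is highest, 20%, in the bin that begins at the start, where 1.37% of all genes have a match.

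The inner kinetochore genes spanned log2 fold changes from -2.14 (Cenpn) to -0.25 (Cenpo) in livers. Of 13, 6 fell in No-Trp livers (Cenpa, Cenph, Cenpn, Cenpp, Cenpq and Cenpt), beside 7.27% of all genes tested. The other 7 were not called (Cenpl by the size of the change alone), and the median log2 fold change was -1.57. Cenpn, which with Cenpl reads the CENP-A nucleosome and whose promoter is shown above, stood at 18.9, 19.99 and 19.3 CPM in control livers and 4.11, 2.21 and 6.70 CPM in No-Trp livers. In xenografts it stood at 8.36, 10.8 and 10.9 CPM on the control diet and 13.2, 17.7 and 17.1 CPM on the No-Trp diet. Every No-Trp liver was far below the control livers, and every No-Trp xenograft was above the control xenografts. The log2 fold change of Cenpn was -2.14 ± 0.39 (SE) in livers, with an adjusted p of 0.0196 by edgeR, the lowest of the 33, and 0.65 ± 0.23 in xenografts (adjusted p = 0.209). Its partner Cenpl had a smaller difference, at 25.6, 20.6 and 24.1 CPM in control and 15.99, 12.4 and 14.3 CPM in No-Trp livers. Cenpl stood at 8.55, 10.7 and 11.5 CPM in control and 13.1, 12.6 and 16.4 CPM in No-Trp xenografts. Neither model's groups overlapped for Cenpl, and its log2 fold changes were -0.70 ± 0.19 in livers and 0.43 ± 0.23 in xenografts.

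Cenpo, a subunit of the complex with Cenpp, Cenpq and Cenpu, was the inner kinetochore gene with the smallest change. It stood at 5.96, 10.2 and 8.41 CPM in control livers and 5.08, 7.48 and 7.71 CPM in No-Trp livers, and the groups overlapped. Xenografts gave 11.0, 11.8 and 11.5 CPM on the control and 12.2, 12.9 and 9.30 CPM on the No-Trp diet, which also overlapped. The log2 fold changes of Cenpo were -0.25 ± 0.30 in livers (adjusted p = 0.553) and -0.019 ± 0.22 in xenografts by edgeR. Exons of Cenpo share 1298 bases with genes on the other strand (Adcy3 and Ptrhd1), and the strand setting of the counting is not given in the sources used here, so reads of these genes cannot be told apart. The other genes of the complex had larger differences in livers. Cenpu, which brings Plk1 to the kinetochore, stood at 6.82, 5.97 and 6.21 CPM in control and 2.06, 0.551 and 3.62 CPM in No-Trp livers. It had the largest positive log2 fold change of the 33 in xenografts, at 3.62, 4.72 and 4.31 CPM on the control and 6.77, 7.90 and 9.22 CPM on the No-Trp diet. The groups of Cenpu overlapped in neither model, but neither log2 fold change passed the test (-1.60 ± 0.57, adjusted p = 0.0762, in livers and 0.90 ± 0.28, adjusted p = 0.178, in xenografts). It too shares 1069 exonic bases with a gene on the other strand, Primpol. Cenpq stood at 15.9, 14.7 and 14.3 CPM in control and 5.88, 3.799 and 9.55 CPM in No-Trp livers, and at 6.84, 8.79 and 6.01 CPM in control and 11.1, 11.1 and 9.39 CPM in No-Trp xenografts, with no overlap in either model. Cenpp stood at 17.6, 8.78 and 13.6 CPM in control and 4.34, 1.96 and 6.86 CPM in No-Trp livers. Its xenografts gave 6.40, 6.28 and 8.92 CPM on the control and 4.25, 5.94 and 5.75 CPM on the No-Trp diet, the only one of the 33 in which every No-Trp xenograft was the lower, and its log2 fold change there was -0.46 ± 0.29 (adjusted p = 0.47). Cenpq and Cenpp share 95 and 315 exonic bases with Mut and Ippk on the other strand.

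Cenph, Cenpi, Cenpk and Cenpm form the complex that links the centromere to its outer layers. Cenph stood at 28.6, 22.9 and 22.3 CPM in control livers and 7.88, 1.96 and 10.6 CPM in No-Trp livers, and Cenpi at 26.3, 20.4 and 22.4 and 8.51, 1.10 and 8.01 CPM. In control and No-Trp xenografts Cenph stood at 14.0, 12.9 and 14.9 CPM and 14.1, 17.7 and 14.3 CPM. Cenpi stood there at 12.7, 15.6 and 11.2 CPM and 16.3, 19.6 and 17.2 CPM. Both were lower in every No-Trp liver, while Cenph overlapped between the xenograft groups and Cenpi did not. Cenph was called lower in livers (log2 fold change -1.84 ± 0.53) and Cenpi, more variable, was not (-1.95 ± 0.64, adjusted p = 0.0614 by edgeR). Cenpk, of low level, stood at 7.35, 4.96 and 5.69 CPM in control and 3.03, 0.919 and 3.005 CPM in No-Trp livers. Its xenografts gave 3.96, 4.28 and 3.40 CPM on the control and 4.47, 6.89 and 7.53 CPM on the No-Trp diet. Neither model's groups overlapped for Cenpk, and it was called in neither. Cenpm, the smallest of these changes in livers, stood at 25.6, 17.1 and 17.9 CPM in control and 13.4, 6.86 and 21.0 CPM in No-Trp livers. Cenpm gave 22.6, 9.63 and 16.7 CPM and 17.8, 29.6 and 11.97 CPM in the xenograft groups. It overlapped between diets in both models (log2 fold change -0.54 ± 0.40 in livers).

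Cenpa, the centromeric histone, stood at 88.0, 65.3 and 81.2 CPM in control and 36.5, 9.50 and 31.7 CPM in No-Trp livers and fell by 1.57 on the log2 scale. Its xenografts overlapped, at 62.5, 56.6 and 82.0 CPM on the control and 55.1, 69.8 and 54.8 CPM on the No-Trp diet. The histone-fold pair Cenpt and Cenpw, which recruits Ndc80, gave 1 call. Cenpt stood at 64.9, 35.9 and 60.3 CPM in control and 20.3, 7.41 and 20.03 CPM in No-Trp livers, a called decrease of 3.34-fold. Cenpw stood at 14.8, 13.2 and 13.5 CPM in control and 10.3, 2.51 and 10.9 CPM in No-Trp livers, and its log2 fold change of -0.79 ± 0.49 did not pass the test (adjusted p = 0.265 by edgeR). Mouse 107 was far below the other No-Trp livers in Cenpw, and those lay much nearer to the controls. In xenografts Cenpt gave 34.6, 39.5 and 42.9 CPM and 26.8, 33.8 and 35.3 CPM and Cenpw 8.26, 7.47 and 8.92 CPM and 6.48, 12.1 and 7.82 CPM on the control and the No-Trp diet, and both overlapped.

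**Figure D3:**
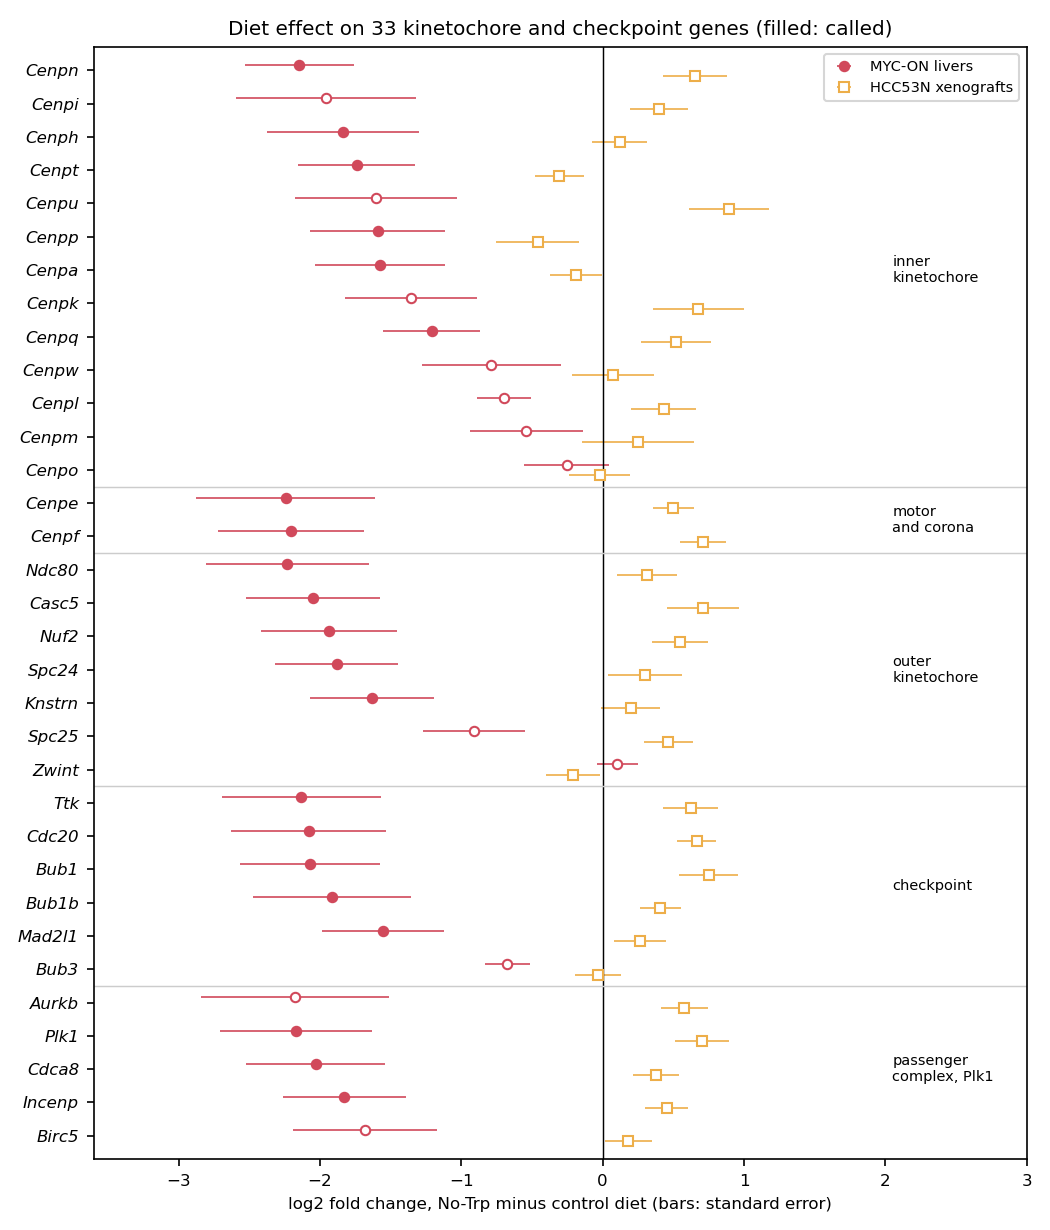
Log2 fold change between the No-Trp and the control diet (x axis, bars are standard errors derived from the edgeR test statistic, 3 mice per group) for each of the 33 genes by role, in MYC-ON livers (circles) and HCC53N xenografts (squares). Filled symbols mark called genes, 21 of 33 in livers and 0 in xenografts, and Zwint is the only gene with a liver value above 0 (below 0 when library totals replace TMM).

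Both genes of the motor and corona group fell in livers, where 7.27% of all genes tested were called lower. Cenpe, the kinesin that carries chromosomes toward the spindle equator, stood at 68.8, 51.4 and 63.8 CPM in control livers and 15.4, 2.696 and 20.4 CPM in No-Trp livers. In xenografts Cenpe stood at 36.3, 37.9 and 34.5 CPM on the control and 46.4, 56.3 and 53.4 CPM on the No-Trp diet. The groups of Cenpe did not overlap in either model and lay in opposite order. Its log2 fold change, -2.24 ± 0.63 in livers (adjusted p = 0.0434 by edgeR), was the largest of the 33 in size, and in xenografts it was 0.50 ± 0.14 (adjusted p = 0.158). Cenpf, a large coiled-coil protein of the fibrous corona, stood at 70.3, 56.3 and 65.8 CPM in control and 19.6, 4.17 and 17.5 CPM in No-Trp livers. Xenografts had 18.1, 18.9 and 21.2 CPM of Cenpf on the control and 35.7, 31.4 and 29.9 CPM on the No-Trp diet. No groups overlapped. Its log2 fold changes were -2.20 ± 0.52 (adjusted p = 0.0286) and 0.71 ± 0.16 (adjusted p = 0.1 by edgeR).

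Of the 7 outer kinetochore genes, 5 fell in livers, beside 7.27% of all genes tested, and the median was -1.88. Ndc80, which gives the complex its microtubule-binding head, stood at 25.5, 23.3 and 24.8 CPM in control and 5.77, 1.29 and 8.48 CPM in No-Trp livers. Ndc80 stood at 15.6, 15.7 and 16.2 CPM in control and 16.6, 25.7 and 17.8 CPM in No-Trp xenografts. The livers were far apart, while the xenograft groups were barely separated, with 1 high library, mouse 36. The log2 fold changes were -2.23 ± 0.57 (adjusted p = 0.0343 by edgeR) and 0.31 ± 0.21. Its partner Nuf2 stood at 33.7, 35.1 and 33.9 CPM in control and 11.2, 2.88 and 12.3 CPM in No-Trp livers. In xenografts Nuf2 gave 11.9, 16.6 and 15.3 CPM and 23.6, 19.9 and 21.5 CPM. Like Ndc80 it had no overlap in either model, with a called decrease of 3.83-fold in livers. Casc5, or Knl1, the platform for the Bub proteins, stood at 15.99, 23.8 and 25.6 CPM in control and 6.79, 1.96 and 6.86 CPM in No-Trp livers. The xenografts had 6.40, 9.03 and 7.89 CPM on the control and 11.3, 16.2 and 11.4 CPM on the No-Trp diet. Casc5 fell in livers (log2 fold change -2.05 ± 0.47, adjusted p = 0.0268) and had 0.71 ± 0.25 in xenografts (adjusted p = 0.218 by edgeR). Knstrn, a spindle and kinetochore protein, stood at 65.7, 54.3 and 61.5 CPM in control and 23.1, 7.35 and 27.4 CPM in No-Trp livers. Its xenografts, at 61.7, 49.8 and 67.7 CPM and 55.2, 89.5 and 64.5 CPM, overlapped, so that Knstrn had a called decrease of 3.10-fold in livers beside a xenograft log2 fold change of 0.20 ± 0.21.

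Zwint, the Knl1 partner, had the smallest difference of the 33 in livers. Control livers gave 62.9, 60.4 and 72.1 CPM and No-Trp livers 64.2, 68.2 and 74.5 CPM, and these groups overlapped. Xenografts gave 91.4, 99.6 and 106 CPM on the control and 86.6, 109.8 and 64.6 CPM on the No-Trp diet, which overlapped as well. In mouse 107, where the median gene of the set was at its lowest, Zwint was at 68.2 CPM, within the range of the control livers. Its log2 fold change in livers was 0.10 ± 0.15 (adjusted p = 0.621 by edgeR), whose sign turned with library totals in place of TMM, to -0.20, and it was called in no comparison between diets under any setting tried. Its promoter, above, has CCAAT letters and no CHR letters. The promoter of Cenpe, the most decreased gene, likewise has CCAAT and no CHR letters. In livers 11 of the 16 genes with CHR letters and 8 of the 14 without were called lower, beside 7.27% of all genes tested. Cenpl, Cenpm, Cenpw, Spc25 and Bub3 have CHR letters and were not called there. The part of these letters in the values was not tested.

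The Ndc80 complex holds its subunits at equal numbers, but their RNA levels were far from equal in livers. Per kilobase of exon, Spc24 stood at 123, 90.1 and 90.4 CPM in control livers, Spc25 at 45.1, 41.4 and 45.4, Nuf2 at 14.0, 14.6 and 14.1 and Ndc80 at 11.6, 10.6 and 11.3. The mean level of Spc24 per kilobase was 9.09 times that of Ndc80 in control livers and 11.5 times in No-Trp livers, and 0.896 and 0.885 times in control and No-Trp xenografts. In control xenografts the per-kilobase levels were 8.30, 5.59 and 5.42 CPM for Spc24, 8.54, 8.49 and 8.61 for Spc25, 4.94, 6.91 and 6.36 for Nuf2 and 7.08, 7.12 and 7.36 for Ndc80. Spc24 and Ndc80 overlapped there, as did Spc24 and Nuf2, while in control livers the order Spc24, Spc25, Nuf2, Ndc80 held without overlap. Spc24 stood at 168, 123 and 124 CPM in control and 40.4, 15.3 and 55.5 CPM in No-Trp livers. In xenografts it stood at 11.3, 7.63 and 7.40 CPM and 9.37, 11.7 and 11.9 CPM on the control and the No-Trp diet. The liver groups did not overlap and the xenograft groups did. Its log2 fold changes were -1.88 ± 0.44 in livers (adjusted p = 0.028 by edgeR) and 0.30 ± 0.26 in xenografts. Spc25, which caps the inner end of the rod with Spc24, had the smallest liver difference of the complex, at 71.6, 65.6 and 72.1 CPM in control and 43.1, 17.0 and 49.8 CPM in No-Trp livers. Its xenografts were tight, at 13.5, 13.5 and 13.7 CPM on the control and 18.9, 19.5 and 18.6 CPM on the No-Trp diet. Neither change of Spc25 passed the test (log2 fold change -0.91 ± 0.36, adjusted p = 0.1, in livers and 0.46 ± 0.17, adjusted p = 0.236, in xenografts by edgeR).

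**Figure D4:**
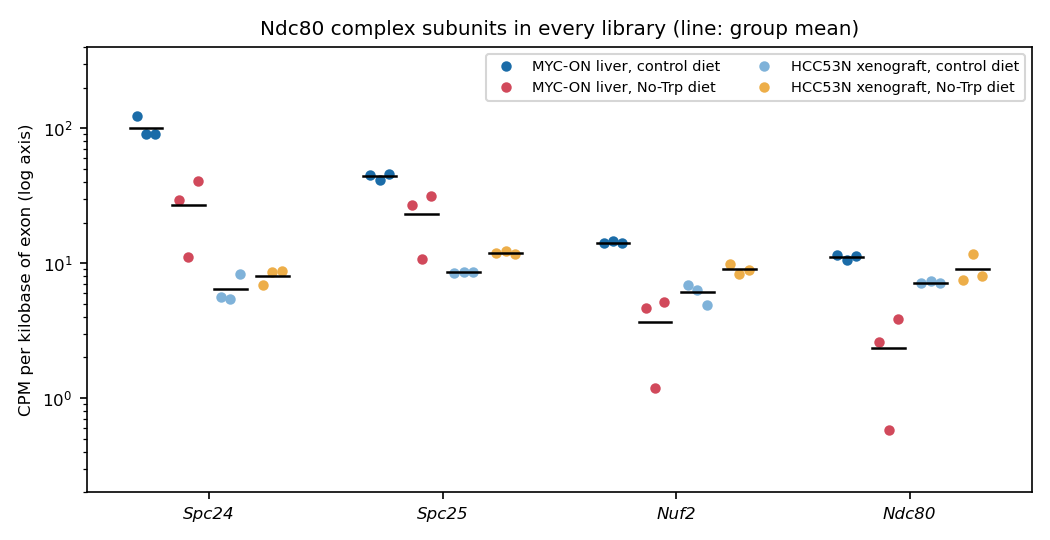
Level of the 4 Ndc80 complex subunits in every library, as CPM per kilobase of exon on a log axis, with 1 point per mouse and a line at the mean of each group of 3. Spc24 is the highest subunit in the livers, at 123, 90.1 and 90.4 on the control diet, and is level with Ndc80 in the xenografts.

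Of the 6 checkpoint genes, 5 fell in livers, beside 7.27% of all genes tested, with a median of -1.99 over the 6. Ttk, the kinase that starts the signal, stood at 54.2, 48.1 and 60.5 CPM in control and 16.8, 3.12 and 16.8 CPM in No-Trp livers. In xenografts Ttk stood at 12.2, 13.7 and 13.6 CPM and 18.7, 19.0 and 24.0 CPM. No group overlapped its counterpart. The log2 fold changes of Ttk were -2.13 ± 0.56 in livers (adjusted p = 0.0366 by edgeR) and 0.62 ± 0.20 in xenografts (adjusted p = 0.18). Bub1, a kinase that marks centromeric histone H2A, stood at 67.5, 55.5 and 68.3 CPM in control and 22.1, 4.90 and 17.95 CPM in No-Trp livers. Xenografts gave 24.1, 29.2 and 28.9 CPM of Bub1 on the control diet and 35.3, 59.1 and 46.1 CPM on the No-Trp diet. Here too the groups were apart in both models and in opposite order, with log2 fold changes of -2.07 ± 0.49 in livers and 0.75 ± 0.21 in xenografts. Bub1b, or BubR1, which binds Cdc20, stood at 117, 130.2 and 154 CPM in control and 50.9, 9.37 and 44.8 CPM in No-Trp livers. The xenograft values of Bub1b were 47.7, 50.5 and 50.7 CPM and 61.1, 76.4 and 63.4 CPM. It fell 3.77-fold in livers, and its xenograft groups did not overlap. Mad2l1, the Mad2 protein that seizes Cdc20, stood at 89.0, 74.4 and 73.8 CPM in control and 34.0, 10.3 and 35.5 CPM in No-Trp livers. Its xenografts overlapped, at 28.2, 33.6 and 40.9 CPM and 42.2, 47.2 and 35.8 CPM, beside a called liver decrease of 2.93-fold.

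Cdc20, the target of the checkpoint and an activator of the anaphase-promoting complex, stood at 167, 165 and 189 CPM in control and 62.7, 11.5 and 47.5 CPM in No-Trp livers. In xenografts it stood at 39.0, 37.9 and 37.9 CPM on the control and 60.9, 57.9 and 66.2 CPM on the No-Trp diet. The control xenografts were nearly identical and all 3 No-Trp xenografts were above them, in the reverse order of the livers. The log2 fold changes of Cdc20 were -2.08 ± 0.55 in livers (adjusted p = 0.0367) and 0.67 ± 0.14 in xenografts (adjusted p = 0.0792 by edgeR, the lowest of the 33 there). DESeq2 gave Cdc20 an adjusted p of 0.0125 in xenografts, where its difference was below the fold threshold. Exons of Cdc20 share 53 bases with Elovl1 on the other strand. Bub3, which carries the Bub kinases to Knl1 and is also known to act in interphase, stood at 108, 94.0 and 104 CPM in control and 66.3, 52.9 and 69.8 CPM in No-Trp livers. The xenograft groups of Bub3 overlapped, at 102, 99.9 and 104 CPM and 88.3, 94.6 and 120.2 CPM. It was lower in every No-Trp liver with the narrowest error of the checkpoint genes, -0.67 ± 0.16 on the log2 scale (adjusted p = 0.028 by edgeR), and so passed the adjusted p but not the fold threshold.

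In the chromosomal passenger complex with Plk1, 3 of 5 genes fell in livers, beside 7.27% of all genes tested, and the median was -2.03. Plk1 stood at 114, 112 and 118 CPM in control and 37.9, 7.23 and 30.5 CPM in No-Trp livers. In xenografts Plk1 stood at 31.7, 33.1 and 40.7 CPM and 46.7, 58.9 and 68.2 CPM. Both models had groups without overlap, in opposite order, with log2 fold changes of -2.17 ± 0.54 (adjusted p = 0.0321 by edgeR) and 0.70 ± 0.19 (adjusted p = 0.144). Aurkb, the kinase of the complex, stood at 72.0, 64.7 and 75.3 CPM in control and 22.7, 2.76 and 21.0 CPM in No-Trp livers. Its xenografts gave 18.6, 20.03 and 21.0 CPM and 26.7, 32.0 and 31.6 CPM. Relative to the control mean, Aurkb was the lowest of the 33 in mouse 107, and its log2 fold change of -2.17 ± 0.66 narrowly missed the call (adjusted p = 0.0526). Birc5, or survivin, stood at 149, 115 and 120.2 CPM in control and 46.9, 12.4 and 59.0 CPM in No-Trp livers and missed it as narrowly (-1.68 ± 0.51, adjusted p = 0.0507 by edgeR). In xenografts Birc5 overlapped, at 42.9, 34.3 and 38.5 CPM and 38.0, 51.0 and 44.4 CPM. Incenp, the scaffold, stood at 104, 106 and 113 CPM in control and 43.5, 11.5 and 35.1 CPM in No-Trp livers. Xenografts had 59.4, 65 and 75.8 CPM and 87.1, 92.6 and 98.7 CPM of Incenp. Cdca8, or borealin, stood at 106, 92.4 and 96.1 CPM in control and 32.1, 7.66 and 31.4 CPM in No-Trp livers. Its xenografts gave 25.7, 24.1 and 22.8 CPM and 28.3, 32.3 and 35.4 CPM. Incenp and Cdca8 were apart in both models and fell in livers by 3.55-fold and 4.09-fold.

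In HCC53N xenografts most of the set lay on the higher side on the No-Trp diet, within a spread that left no gene called. The paper reports that growth of HCC53N xenografts was limited on this diet. How tumor growth relates to these values was not tested. By edgeR 0 of the 33 were called in either direction (lowest adjusted p = 0.0792, of Cdc20), where 0.116% of 14704 genes were called lower and 0.245% higher. DESeq2 called 0 as well, where Cdc20 and Cenpf missed the call by the size of the change alone (adjusted p = 0.0125 and 0.0167). The log2 fold change was above 0 in 27 of 33, with a median of 0.41 (all genes tested, -0.0045), and 15 genes, all on the higher side, had an unadjusted p below 0.05, where 7.82% of all genes tested were higher and 9.07% lower at that p. In 20 genes every No-Trp xenograft lay above every control xenograft, and in 1, Cenpp, below, where 11.2% and 11.3% of all genes tested were so arranged. The resubmission mark and the diet overlap in part there, since mice 41 and 43 are both controls. With the mark as a covariate 12 genes were higher at an unadjusted p below 0.05, as were 6.90% of all genes tested. In a fit over all 12 libraries, whose spread includes the livers, 0 had such a p. In that fit 7.26% of all genes were higher and 7.01% lower at it.

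A single test asked whether the diet effects differed between the models. The contrast took the change in livers minus the change in xenografts, over all 12 libraries. Of the 33, 25 were called lower and 0 higher, against 6.70% and 6.01% of 15472 genes, with a median log2 difference of -2.21 (all genes, -0.034). Of the roles, 7 of 13 inner kinetochore genes, 2 of 2 of the motor and corona group, 6 of 7 outer kinetochore, 5 of 6 checkpoint and 5 of 5 passenger and Plk1 genes were called. Cenpf had the largest difference, -2.94 ± 0.56 (SE; adjusted p = 0.0103 by edgeR), and Cenpn the lowest adjusted p, 0.00647, with -2.82 ± 0.46. Plk1 had -2.89 ± 0.60 and Bub1 -2.85 ± 0.57. The 8 genes not called were Cenpa, Cenpm, Cenpo, Cenpp, Cenpt, Cenpw, Zwint and Bub3, 28 of the 33 were lower at an unadjusted p below 0.05 (16.8% of all genes), and DESeq2 called 26 lower and 0 higher. Leaving out 1 library at a time gave 12 (without mouse 103) to 26 called. The count was 14 without mouse 36, 43 or 40, 15 without mouse 37 and 16 without mouse 41. In the fits without 1 library, 28 or 29 of the 33 were lower at an unadjusted p below 0.05 by edgeR, beside 14.0% to 17.1% of all genes.

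Between the models, 16 of the 33 genes were called lower in xenografts on the control diet and 15 were called higher on the No-Trp diet, with only 5 in both counts (Bub1, Casc5, Cenpf, Nuf2 and Plk1). These contrasts share their libraries with those between diets, and the model cannot be told apart from host, strain, sex and site. With xenografts minus livers, the calls on the control diet were 16 lower and 0 higher (20.2% and 23.3% of all 15472 genes), with 18 lower and 1 higher at an unadjusted p below 0.05 (31.0% of all genes were lower at that p), 0 called higher by DESeq2 (Zwint missed it by the size of the change alone in both), and with a median of -0.95. On the No-Trp diet 15 were called higher and 1 lower (24.5% and 19.1% of all genes), with a median of 0.95 beside 0.15 for all genes. Spc24 was the exception, lower in xenografts on both diets, at -3.97 ± 0.41 on the control (adjusted p = 5.96e-06) and -1.77 ± 0.37 on the No-Trp diet (adjusted p = 0.00149 by edgeR). Spc25, at -2.36 ± 0.30 and -0.96 ± 0.29, was called on the control diet and missed the fold threshold on the other, and the test of that change is its contrast of diet effects, -1.40 ± 0.41 (adjusted p = 0.0394 by edgeR). Cdc20 (-2.18 ± 0.43), Ttk (-2.04 ± 0.45) and Cdca8 (-2.02 ± 0.39) had the next largest differences on the control diet. Knstrn (-0.017 ± 0.36) and Bub3 (-0.0013 ± 0.16) differed least between the models there.

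Other genes of the same structures, from a list of 33 further kinetochore and centromere genes, were lower in No-Trp livers as well. In livers 18 of the 33 fell and 0 rose, beside 7.27% and 9.28% of all genes tested, and the median was -1.77. Kntc1, the Rod protein of the corona complex that brings in Mad1 and Mad2, stood at 42.9, 42.8 and 49.9 CPM in control and 8.11, 1.78 and 12.7 CPM in No-Trp livers (log2 fold change -2.57 ± 0.60, adjusted p = 0.0286 by edgeR). Ska1, of the Ska complex that follows microtubule ends, stood at 22.9, 16.3 and 16.3 CPM in control and 4.97, 0.490 and 5.86 CPM in No-Trp livers and missed the call (-2.28 ± 0.72, adjusted p = 0.0568). Both were lower in every No-Trp liver. Mis12, which names the complex between the inner layer and Ndc80, stood at 22.2, 24.9 and 20.5 CPM and 23.4, 29.3 and 16.2 CPM with overlap (log2 fold change 0.052 ± 0.24). In xenografts 0 of these 33 were called by edgeR or DESeq2, and the median was 0.31. At an unadjusted p below 0.05 by edgeR, 10 were higher and 2 lower, beside 7.82% and 9.07% of all genes tested. Without mouse 101 or 103 the count in livers was 0, and without mouse 105 it was 1.

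The anaphase-promoting complex is what the checkpoint holds back. Of 20 listed genes 4 fell in livers and 0 rose, with a median of -0.47, where 7.27% of all genes tested were called lower and 9.28% higher. The 4 were Fbxo5 and Espl1, with Ube2c and Ube2s, and none of them is a core subunit. The core subunits Cdc23 (log2 fold change -0.95 ± 0.18, adjusted p = 0.0196 by edgeR) and Anapc1 (-0.72 ± 0.15, adjusted p = 0.0235) passed the adjusted p in livers and missed the call by the size of the change alone. Cdc23 was called in the test of diet effects between the models (-1.36 ± 0.24, adjusted p = 0.0078 by edgeR). Fbxo5, the inhibitor Emi1, stood at 32.1, 31.4 and 32.0 CPM in control and 6.39, 2.33 and 7.24 CPM in No-Trp livers (log2 fold change -2.56 ± 0.40, adjusted p = 0.0163 by edgeR). Espl1, separase, which cuts cohesin, stood at 90.9, 99.4 and 114 CPM in control and 28.9, 4.84 and 24.4 CPM in No-Trp livers (-2.37 ± 0.58, adjusted p = 0.0315). Anapc16, a core subunit, stood at 47.3, 38.7 and 40.8 CPM and 45.9, 35.9 and 43.5 CPM, with overlap. In xenografts 0 of the 20 were called by edgeR or DESeq2, and at an unadjusted p below 0.05 by edgeR 1 was higher (Espl1) and 3 were lower (Pttg1, Anapc13 and Cdc26), counts near what 7.82% and 9.07% of all genes tested, higher and lower, would give for a list of this length. Without mouse 101, 103 or 105 the liver count was 0.

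Proliferation genes were lower in the same livers. Mki67, the Ki-67 protein of cycling cells, stood at 337, 287 and 306 CPM in control and 72.7, 20.4 and 81.9 CPM in No-Trp livers. In xenografts it stood at 92.7, 81.6 and 69.3 CPM on the control and 109, 122 and 133 CPM on the No-Trp diet. The order of the groups was that of most of the 33 genes in both models. Its log2 fold changes were -2.39 ± 0.48 in livers (adjusted p = 0.0223 by edgeR) and 0.56 ± 0.16 in xenografts (adjusted p = 0.158). All 6 of Mki67, Top2a, Cdk1, Ccnb1, Ccnb2 and Ccna2 fell in livers, where 7.27% of all genes tested were called lower. In xenografts 0 were called by edgeR or DESeq2, and 4 were higher at an unadjusted p below 0.05 by edgeR, as were 7.82% of all genes tested. Without mouse 101, 103 or 105 the liver count was 0, and without mouse 108 it was 2.

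Markers of other cell types differed between the liver groups too. The 12 erythroid precursor markers summed to 90.4, 919 and 577 CPM in control livers and to 27.0, 30.8 and 45.2 CPM in No-Trp livers, without overlap, and their part in the result was not tested. The 33 genes summed to 2078, 1810 and 2024 CPM and to 803, 313 and 836 CPM in the same libraries. The 8 neutrophil lineage markers summed to 237.5, 214 and 259 CPM in control and 25.7, 8.52 and 119 CPM in No-Trp livers, without overlap, and their part in the result was not tested. The 10 hepatocyte markers summed to 16060, 42212 and 13120 CPM in control and 61828, 128884 and 52286 CPM in No-Trp livers, with mouse 107 highest in these and lowest in the 33 genes, and their part was not tested either. Sums of the 7 macrophage markers (341 to 769 CPM), the 7 fibroblast and stellate markers (633 to 838 CPM) and the 9 leukocyte markers (15.6 to 30.5 CPM) overlapped between liver groups. So did the 4 cholangiocyte markers (18.4 to 50.9 CPM) and the 5 skin and muscle markers (40.8 to 129 CPM), while the 6 endothelial markers (109 to 373 CPM) overlapped as well.

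In xenografts the 33 genes summed to 901, 909 and 997 CPM on the control and 1039, 1259 and 1144 CPM on the No-Trp diet. The neutrophil lineage sum was 10.1 to 12.4 CPM on the control and 18.9 to 31.4 CPM under the No-Trp diet, while the leukocyte sum was 23.6 to 27.9 and 28.9 to 37.8 CPM. Both were thus higher without overlap on the No-Trp diet, as was the sum of the 33 genes, and their part in the xenograft values was not tested. The erythroid sum was 10.9 to 18.5 CPM, and Gata1, a defining erythroid factor, was at 0 in mice 36, 37 and 40. The cholangiocyte markers summed to 337 to 834 CPM there, above every liver, and the fibroblast and stellate markers to 1087 to 5450 CPM. Skin and muscle markers were highest in mouse 43, a control xenograft, at 180.9 CPM against 23.7 to 76.8 CPM in the other 5.

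**Figure D5:**
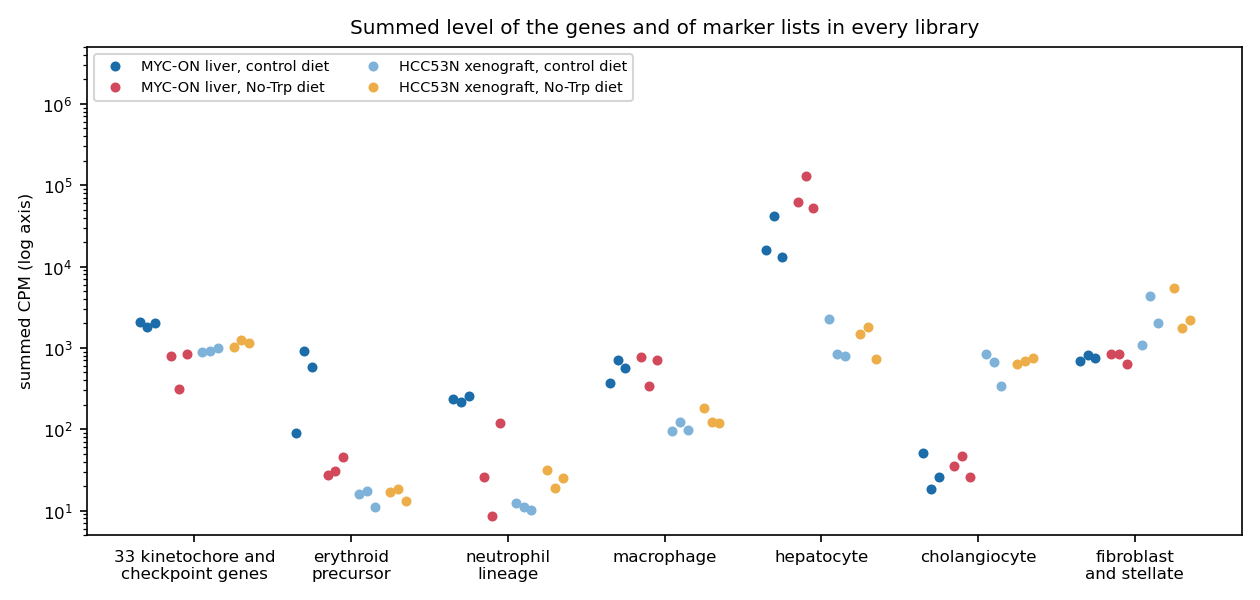
Summed CPM (log axis) of the 33 kinetochore and checkpoint genes and of 6 marker lists in every library, with 1 point per mouse and 4 groups of 3. The No-Trp livers are below the control livers in the 33 genes (313 to 836 against 1810 to 2078 CPM) and in erythroid and neutrophil lineage markers, and above them in hepatocyte markers.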

How the data were processed

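RNA of 12 mice was sequenced and the authors deposited, per library, raw read counts per gene from HTSeq. The submitters' processing notes also name Trim Galore, STAR 2.7.2b, SAMtools 1.9, Bowtie2 2.3.4.3, BWA 0.7.17, DESeq2, mm10 and GRCm38.p6, while the strand setting and the HTSeq version are not given in the sources used here. Rows that name no gene (24.7 to 39.4% of reads) were left out. Counts were tested with edgeR 4.0.16 (TMM factors, filterByExpr, robust quasi-likelihood fit, two-sided, Benjamini-Hochberg over all genes tested) within each model for diet, and over all 12 libraries for the other contrasts, and scripts were tested on simulated data. Calls needed an adjusted p no higher than 0.05 together with a fold change of 1 or more on the log2 scale, as the study's methods set them. The study used DESeq2, run here (1.42.0, R 4.3.3) as an alternative. The error ± is the standard error from the fit. The common biological coefficient of variation was 31.6% in livers and 28.7% in xenografts. Outside genes of low level, precision is thus set by 3 mice a group more than by depth. For genes such as Cenpu, at 0.551 CPM in mouse 107, counting noise also enters. Levels per kilobase used the exons of GRCm38.p6. With 3 against 3 mice a permutation test of 1 gene cannot go below p = 0.1, so none was run. All 33 genes could be named, with values per library for those called in the contrast of diet effects, for the largest and smallest changes of each role and for Mki67, and of each other list the 2 largest and the smallest changes in livers were named. The other genes of the 33 and other named genes were added after their values were seen. The members, lists and tests were chosen with earlier results of these data known. Promoter sequences are from RefSeq.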

Additional observations from a re-analysis of the deposited data

Results flagged for a closer look

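The diet effect differed between MYC-ON livers and HCC53N xenografts, by the contrast of the effects (livers minus xenografts, log2 scale, edgeR over all 12 libraries, adjusted p of at most 0.05), in 25 of the 33 genes, and in each of them the liver effect was the lower. Of all 15472 genes, 1276 were lower and 1144 higher at that adjusted p. Leaving out 1 library at a time gave 12 to 26 of the 33 called lower. Among inner kinetochore genes the difference was -1.98 for Cenph, -2.38 for Cenpi, -2.05 for Cenpk, -1.16 for Cenpl, -2.82 for Cenpn, -1.75 for Cenpq and -2.52 for Cenpu. The microtubule motor Cenpe had -2.77 and the corona protein Cenpf had -2.94. Of the outer kinetochore genes, Ndc80 had -2.57, Nuf2 -2.51, Spc24 -2.21, Spc25 -1.40, Casc5 -2.79 and Knstrn -1.86. The checkpoint genes gave -2.85 for Bub1, -2.35 for Bub1b, -1.84 for Mad2l1, -2.77 for Ttk and -2.77 for Cdc20. The passenger genes and Plk1 gave -2.78 for Aurkb, -2.30 for Incenp, -1.89 for Birc5, -2.43 for Cdca8 and -2.89 for Plk1. The groups hold 3 mice each, so single libraries were not screened for outliers.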

How the results depend on the processing

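No gene of the 33 changed the sign of a called difference under any alternative tried, and 0 were called in xenografts under each of them except DESeq2 with no fold threshold. No paired analysis was possible because no 2 groups share animal numbers. In livers the count of the 33 called lower (21) was 13 with no low-count filter, 18 with library totals, 22 with RLE factors or with at least 10 counts in every library, 19 with the resubmission mark as a covariate, 26 in one fit over all 12 libraries and 26 by DESeq2. At an unadjusted p below 0.05, 28 or 29 of the 33 were lower in these fits. The share of all genes lower at that p ran from 16.5% with no low-count filter to 28.0% with library totals. Leaving out 1 library gave 0 to 22, and for the other lists 0 to 20 (kinetochore), 0 to 5 (anaphase-promoting complex) and 0 to 6 (proliferation). With no low-count filter 2 genes of the anaphase-promoting complex list and 2 proliferation genes were called. Library totals in place of TMM moved the median of all genes by -0.30 in livers, 0.11 in xenografts and -0.41 in the contrast of diet effects, where the 33 had -2.05, 0.52 and -2.51, and 1 proliferation gene was then called higher in xenografts. Without 1 library the contrast of diet effects called 12 to 26. Between models, with no fold threshold 1 gene was higher in xenografts on the control diet (1 also by DESeq2). On the No-Trp diet 2 were lower with DESeq2, with RLE factors and with no fold threshold (2 by DESeq2 with none), 1 to 2 without 1 library, and those higher numbered 23 with library totals and 9 to 17 without 1 library. DESeq2 with no fold threshold, added after the data were seen, gave 2 genes higher in xenografts. The same alternatives for the other lists and the overlap of groups under library totals were added likewise. Of the gene-level results, 90 of the liver effects, 81 of the differences in diet effect, 6 and 13 of the model differences lost their call under some alternative, counted per gene and alternative, and 17, 8, 5 and 19 gained one. The causes were not tested.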
